A study of Mus musculus with 4 samples.

Results

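The genes described here are 10 textbook markers and regulators of epithelial and mesenchymal identity, chosen by name from the 27179 genes counted in MC38 cells. They were the epithelial genes Cdh1, Epcam, Krt8 and Krt18, the mesenchymal genes Cdh2 and Vim, and the transcription factors Zeb1, Snai1, Snai2 and Twist1, and no threshold on a measured value was used. MC38 is a mouse colon carcinoma cell line derived from a C57BL/6 mouse, and its cells carried the label WT for genotype in all 4 libraries. The 4 libraries were an untreated control in normoxia (20% oxygen), an untreated control in hypoxia (1.5% oxygen), IFN-γ in normoxia and IFN-γ in hypoxia. The methods state a dose of 5 ng/mL and 24 h for most IFN-γ experiments and do not state how long the sequenced cells were hypoxic. Each condition was a single culture of this line and a single library, so no value below has a replicate. RNA from a whole culture does not tell fewer cells of a kind from less RNA per cell.

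Epithelial cells are held together by E-cadherin, the product of Cdh1, which joins neighbouring cells and binds catenins inside the membrane. Their keratin filaments are built from pairs of a type II keratin such as Krt8 and a type I keratin such as Krt18, and Epcam is a surface adhesion protein of simple epithelia such as the colon. In an epithelial to mesenchymal transition (EMT), SNAI, ZEB and TWIST factors are known to lower Cdh1, while N-cadherin (Cdh2) and vimentin (Vim), the intermediate filament protein of mesenchymal cells, take the place of E-cadherin and keratins. The SNAI and ZEB factors bind E-box sequences in the promoters of the epithelial genes that they repress.

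In MC38 cells the epithelial genes Cdh1, Epcam and Krt18 were near or at 0 counts in each of the 4 libraries. Krt8 was detected and the mesenchymal genes were expressed in all 4. Cdh1 had no count in any library, Epcam and Krt18 had 2 counts in a single library each, and Krt8 had between 48 and 90 counts. Vim ranked between 56 and 64 among 21610 genes by its level per length, and Twist1, Snai1 and Cdh2 followed at much lower levels. None of the 7 members with enough counts to be tested passed the test for IFN-γ or for hypoxia, while 5.86% of the 13580 tested genes passed it for IFN-γ and 15.0% for hypoxia. Among neighbouring genes that were not members, Cdh17 and Prrx1 rose with IFN-γ, Ovol1 rose with both, and Twist2 fell while Foxc2 and Tjp1 rose in hypoxia.

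The libraries were alike in depth, with totals from 34302971 to 34537939 counts. Levels between genes are given as TPM, a level per length scaled to the same sum in each library and computed from the counts and the longest annotated transcript of each gene, for the 21610 genes with a length. The low counts of the table were mostly even numbers, in 64.0% to 66.4% of the genes with 1 to 10 counts of a library, a pattern that counting both reads of a pair would leave. For this reason the floor below which a gene was not told from absent was set at 3 read pairs, or 6 counts, and the counting intervals were computed after dividing the counts by 2. The labelled cell type was checked against marker lists. Of 13 markers of intestinal epithelium, 7 lay at or under the floor in every library, and Cdx1, Cdx2, Lgr5, Fabp1 and Car1, which mark gut epithelium or its stem cells, had no count at all. Of all 27179 genes, 18812 had at least 1 count in some library. A mean of at least 1 TPM was reached by 8.33% of the 12 markers with a length, beside 51.5% of all 21610 genes. The 13 markers summed to between 52 and 176 counts per library, most of them from Cdh17 in the IFN-γ libraries. Besides Cdh17, Krt20 (12 to 22 counts) and Vil1 (7 to 17) were above the floor in every library, and each of the other markers was at or under it in at least 1 library. The 11 fibroblast or stromal markers summed to 3816 and 3622 counts in the IFN-γ libraries and to 4384 and 4866 in the control libraries, with Col3a1 at 2233 to 3238 and Pdgfra at 1077 to 1341, while Thy1 was at 0 in all 4 and Lum and Postn lay under the floor. The 8 leukocyte markers summed to 259 to 343 counts, led by Cd68 at 170 to 236 and Lyz2 at 69 to 96. Ptprc was at 2 to 12 and Csf1r at 4 to 12, with Adgre1 and Itgam at 0 in all 4 libraries. The 6 endothelial markers summed to 36 to 68 counts, with Cdh5 at 16 to 50, Kdr at 0 in all 4 and Erg under the floor. The part of such cells in the results was not tested.

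**Figure D1:**
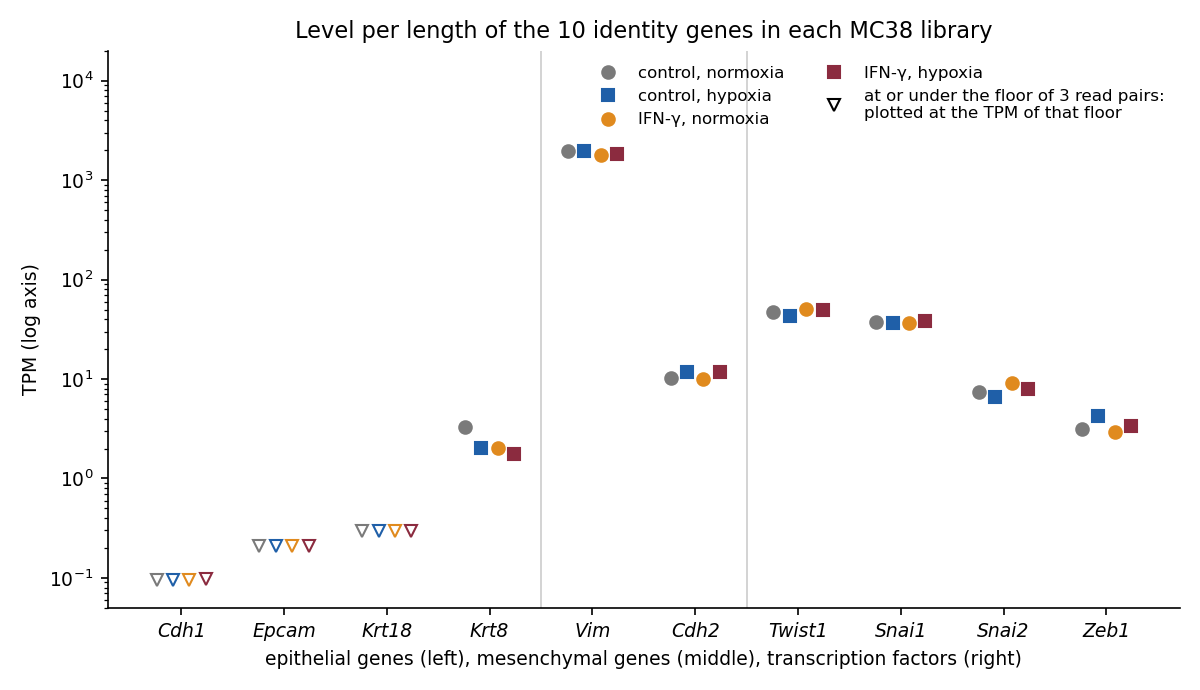
TPM of the 10 genes (log axis) in each of the 4 libraries, 1 point per library. Filled points are levels above the floor, and open triangles mark libraries at or under 6 counts, drawn at the TPM that 6 counts of that gene would give. Cdh1, Epcam and Krt18 appear as triangles in all 4 libraries, Vim lies between 1803 and 1959 TPM, and the 4 transcription factors lie between 2.93 and 50.8 TPM.

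The promoters of the epithelial genes are shown first because the E-box read by SNAI and ZEB factors is the sequence through which these factors are known to act. RefSeq promoter windows on GRCm38.p6, the mm10 assembly that the submitters' processing notes name, were matched for 6 of the 10 members, which were Epcam, Krt8, Krt18, Vim, Snai1 and Twist1. The 250 bases before the start site are printed 5′ to 3′ on the strand of the gene for the 3 epithelial genes and, for contrast, for Vim. Capitals mark the E-box CAGGTG, read as CACCTG on the other strand, and the HIF core ACGTG or GCGTG, the sequence to which hypoxia-inducible factors bind, also on both strands. The windows are chr17:87635729-87635978 (plus strand) for Epcam, chr15:102004343-102004592 (minus strand) for Krt8, chr15:102027966-102028215 (plus strand) for Krt18 and chr2:13574061-13574310 (plus strand) for Vim.
Epcam: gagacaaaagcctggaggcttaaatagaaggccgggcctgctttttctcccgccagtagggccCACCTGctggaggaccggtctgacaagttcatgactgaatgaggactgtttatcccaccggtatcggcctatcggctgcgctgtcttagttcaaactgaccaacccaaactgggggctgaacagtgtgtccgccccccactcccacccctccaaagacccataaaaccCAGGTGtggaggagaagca
Krt8: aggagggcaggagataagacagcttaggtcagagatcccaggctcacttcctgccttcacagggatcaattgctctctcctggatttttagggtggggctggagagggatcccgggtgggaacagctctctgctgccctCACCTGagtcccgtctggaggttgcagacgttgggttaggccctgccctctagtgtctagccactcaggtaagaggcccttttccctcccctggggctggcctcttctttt
Krt18: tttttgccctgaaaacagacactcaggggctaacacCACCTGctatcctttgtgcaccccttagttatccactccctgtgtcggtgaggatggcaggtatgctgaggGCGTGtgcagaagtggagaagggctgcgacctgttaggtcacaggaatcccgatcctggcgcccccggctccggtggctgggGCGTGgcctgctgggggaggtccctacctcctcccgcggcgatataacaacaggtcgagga
Vim: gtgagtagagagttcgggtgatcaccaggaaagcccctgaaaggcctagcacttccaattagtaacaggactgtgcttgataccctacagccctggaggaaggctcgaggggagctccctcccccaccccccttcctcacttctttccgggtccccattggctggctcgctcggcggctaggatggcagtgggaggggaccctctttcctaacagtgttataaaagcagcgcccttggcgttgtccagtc

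The search covered the whole window of 300 bases, from 250 before to 50 after the start site. The Epcam window held 2 E-boxes, whose first bases lay 187 and 19 bases before the start site. Krt8 held 1 at 111 bases before and Krt18 held 1 at 214 bases before it. The Vim and Twist1 windows held none, and the window of Snai1, a factor known to bind its own promoter, held 1 at 126 bases before the start. Of all 32817 promoter windows searched in the same way, 20.2% held the E-box. The HIF core occurred 2 times in Krt18, 3 times in Snai1 and 1 time in Twist1. In Epcam its 2 matches overlapped in a single CACGTG after the start site, and Krt8 and Vim had none, beside 43.8% of all windows. The IFN-γ activated site TTCNNNGAA was in none of the 6 windows and in 8.29% of all windows. The windows also differed in CG dinucleotides, with 34 in Snai1, 27 in Twist1, 17 in Krt18, 11 in both Epcam and Vim and 6 in Krt8, while all windows had a median of 7 and an upper quartile of 20. These matches describe letters in a window and were not tied to the expression values. No promoter is shown for Cdh1, Cdh2, Zeb1 and Snai2.

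Cdh1, at chr8:106603350-106670247 on the plus strand of mm10, encodes E-cadherin. It had 0 counts in the control library in normoxia, 0 in the control library in hypoxia, 0 in the IFN-γ library in normoxia and 0 in the IFN-γ library in hypoxia. At these depths the floor of 6 counts corresponds to 0.0955 to 0.0969 TPM of Cdh1, so a level up to that value was not detectable. Of the 31-base words of Cdh1, 0.394% occur in another annotated gene. How reads that match several genes were counted is not given, and its effect on Cdh1 was not tested.

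Epcam (chr17:87635979-87651127, plus strand) had 2 counts in the control library in normoxia and 0 in the other 3 libraries. Krt18 (chr15:102028216-102032026, plus strand) had 2 counts in the IFN-γ library in hypoxia and 0 in the other 3. Both genes therefore lay under the floor in all 4 libraries, which for Epcam is 0.207 to 0.21 TPM and for Krt18 0.294 to 0.299 TPM, and no fold change is given for them. These 3 epithelial genes did not enter the test. Of the 31-base words of Krt18, 11.4% occur in other annotated genes, with 9.31% in the processed pseudogene Gm5200. For Epcam 0.045% are shared. The effect of shared words on the counts of Krt18 and Epcam was not tested.

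Krt8 (chr15:101996711-102004342, minus strand), the type II partner of Krt18, was the single epithelial member above the floor, and lies 23873 bases from Krt18 on the same chromosome. It had 90 counts in the control library in normoxia, 56 in the control library in hypoxia, 56 in the IFN-γ library in normoxia and 48 in the IFN-γ library in hypoxia. The control library in normoxia was the highest, and the other 3 lay between 48 and 56.
Per length, Krt8 stood at 3.26, 2.02, 2.02 and 1.75 TPM in the same order, which is at least 11-fold, 6.85-fold, 6.85-fold and 5.87-fold above Krt18 when Krt18 is set at its floor. The fitted log2 change of Krt8 was -0.46 with IFN-γ (SE 0.283, edgeR adjusted p = 0.528) and -0.47 with hypoxia (SE 0.283, edgeR adjusted p = 0.291), and neither passed the test. Of the 31-base words of Krt8, 32.3% also occur in other annotated genes, nearly all of them in the processed pseudogene Krt8-ps, and how reads that match both were counted is not given in the sources used here. The level of Krt8 is uncertain for this reason. Krt8 also overlaps 271 bases of the noncoding gene Gm36026 on the opposite strand. The libraries keep the strand, and whether the counting used it is not given.

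The mesenchymal members were expressed in every library. Vim (chr2:13574311-13582826, plus strand) had 80440 counts in the control library in normoxia, 81307 in the control library in hypoxia, 74838 in the IFN-γ library in normoxia and 75215 in the IFN-γ library in hypoxia. Both IFN-γ libraries lay below both control libraries, and the libraries in hypoxia and normoxia overlapped. In TPM these were 1951, 1959, 1803 and 1839, with ranks of 56, 58, 63 and 64 among 21610 genes. The fitted log2 change with IFN-γ was -0.095 (SE 0.0434), with an unadjusted p of 0.029 and an edgeR adjusted p = 0.263, and that with hypoxia was 0.013 (SE 0.0434, edgeR adjusted p = 0.89). Between single libraries the IFN-γ change of Vim was -0.09 in normoxia (95% counting interval -0.11 to -0.07) and -0.099 in hypoxia (-0.12 to -0.079), which shows that counting error was small beside this difference and says nothing of the spread between cultures.

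Cdh2, on chromosome 18, encodes N-cadherin. It had 701 counts in the control library in normoxia, 806 in the control library in hypoxia, 693 in the IFN-γ library in normoxia and 801 in the IFN-γ library in hypoxia. Both hypoxic libraries were higher than both normoxic libraries, and control and IFN-γ libraries were nearly equal at the same oxygen. The fitted log2 change with hypoxia was 0.21 (SE 0.0897), with an unadjusted p of 0.021 and an edgeR adjusted p = 0.103, so it did not pass the test. With IFN-γ it was 0.00087 (SE 0.0897, edgeR adjusted p = 0.998). With the longest transcript of each gene, Cdh2 stood at 10.3, 11.7, 10.1 and 11.8 TPM. These levels were at least 107-fold, 123-fold, 106-fold and 122-fold above the floor of Cdh1 in the same 4 libraries. Vim in turn stood 155 to 190 times above Cdh2 in TPM and 598 to 1049 times above Krt8. These ratios and bounds hold for this length only. In the control library in normoxia, Cdh2 was at 8.34 TPM with the union of exons and 7.94 with the coding length. At these 2 lengths Krt8 was at 4.41 and 1.89 TPM, and Vim at 1628 and 1772.

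The transcription factors were all above the floor, and Twist1 was the highest of the 4 in every library. Twist1 (chr12:33957671-33959831, plus strand) encodes a basic helix-loop-helix factor of the mesoderm. It had 1080 counts in the control library in normoxia, 988 in the control library in hypoxia, 1174 in the IFN-γ library in normoxia and 1126 in the IFN-γ library in hypoxia. Both IFN-γ libraries were above both controls, and the hypoxic library was the lower of each pair. The fitted log2 change was 0.17 with IFN-γ (SE 0.08), with an unadjusted p of 0.0361 and an edgeR adjusted p = 0.3, and -0.092 with hypoxia (SE 0.08, edgeR adjusted p = 0.509). Between single libraries the IFN-γ change was 0.13 in normoxia (95% counting interval -0.037 to 0.31) and 0.20 in hypoxia (0.025 to 0.38). Its level was 42.8 to 50.8 TPM.

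Snai1 (chr2:167538195-167542814, plus strand), which encodes the zinc finger repressor Snail, varied least with either stimulus among the factors. It had 857 counts in the control library in normoxia, 832 in the control library in hypoxia, 837 in the IFN-γ library in normoxia and 866 in the IFN-γ library in hypoxia. The groups overlapped for both stimuli, and the fitted log2 changes were 0.025 with IFN-γ (SE 0.0857, edgeR adjusted p = 0.966) and 0.0053 with hypoxia (SE 0.0857, edgeR adjusted p = 0.98). At 36.2 to 38.2 TPM it lay below Twist1 in every library, by a factor of 1.18 to 1.4.

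Snai2 (chr16:14705852-14709395, plus strand), which encodes the related repressor Slug, was lower than Snai1 by a factor of 3.98 to 5.49 in TPM. It had 211 counts in the control library in normoxia, 189 in the control library in hypoxia, 262 in the IFN-γ library in normoxia and 222 in the IFN-γ library in hypoxia. Both IFN-γ libraries were above both controls. The fitted log2 change with IFN-γ was 0.29 (SE 0.152, edgeR adjusted p = 0.391) and that with hypoxia was -0.20 (SE 0.152, edgeR adjusted p = 0.435), and neither passed the test.

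Zeb1, on chromosome 18, encodes a zinc finger and homeodomain repressor. It had 258 counts in the control library in normoxia, 351 in the control library in hypoxia, 241 in the IFN-γ library in normoxia and 276 in the IFN-γ library in hypoxia. The control library in hypoxia stood apart from the other 3, both hypoxic libraries were above both normoxic ones, and the IFN-γ library was the lower at each oxygen level. The fitted log2 change with hypoxia was 0.33 (SE 0.135), with an unadjusted p of 0.0159 and an edgeR adjusted p = 0.085, the smallest adjusted p of any member. Between single libraries the hypoxia change was 0.45 without IFN-γ (95% counting interval 0.11 to 0.79) and 0.20 with it (-0.17 to 0.56). The IFN-γ change of Zeb1 was -0.084 in normoxia (-0.45 to 0.29) and -0.33 in hypoxia (-0.67 to -0.0039), and the fitted value of -0.21 (SE 0.135, edgeR adjusted p = 0.538) did not pass the test. The difference of these IFN-γ changes, hypoxia minus normoxia, was -0.25 with a counting interval from -0.73 to 0.23. Over the 10443 genes that reached 100 counts in all 4 libraries the central 95% of the same difference ran from -0.36 to 0.4, so Zeb1 lay inside the range of other genes, and the difference was not tested. The antisense gene Gm10125, which overlaps 1646 bases of Zeb1, had 0 to 2 counts.

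**Figure D2:**
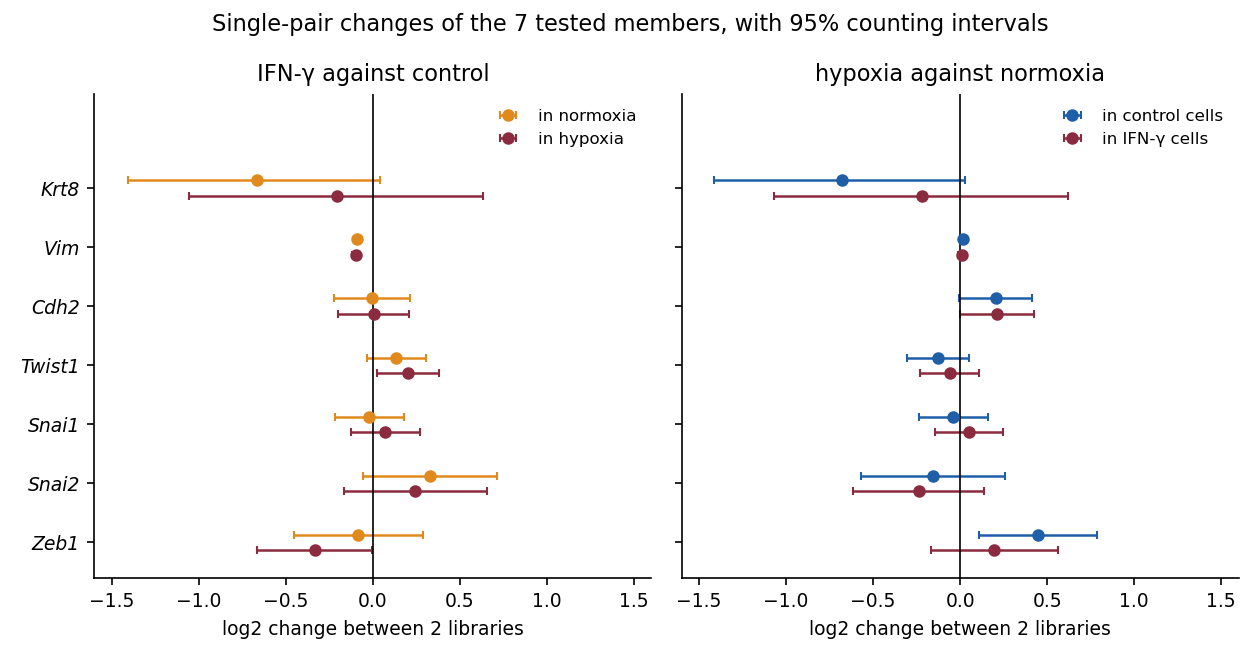
Log2 changes between 2 single libraries for the 7 tested genes, with IFN-γ on the left and hypoxia on the right. Bars are 95% intervals for counting error only, computed after dividing counts by 2. Of 28 intervals 5 leave out 0, which are those of Vim for IFN-γ in both pairs, Twist1 (above 0) and Zeb1 (below 0) for IFN-γ in hypoxia and Zeb1 for hypoxia in control cells, and those of Krt8 are the widest.

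By TPM the order of the members was Vim, Twist1, Snai1, Cdh2 and Snai2, followed by Zeb1 and Krt8, with Krt18, Epcam and Cdh1 under the floor. Neighbours down to Snai2 did not overlap over the 4 libraries, with Snai1 at 36.2 to 38.2, Cdh2 at 10.1 to 11.8 and Snai2 at 6.59 to 9.14 TPM. The place of Cdh2 above Snai2 depends on the length used. In the control library in normoxia, Cdh2 was at 10.3 and Snai2 at 7.41 TPM with the longest transcript, 7.94 and 8.05 with the coding length, and 8.34 and 10.02 with the union of exons. Zeb1 at 2.93 to 4.27 and Krt8 at 1.75 to 3.26 TPM overlapped, and their order is not established.

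For the set as a whole, 0 of 7 tested members passed the test with IFN-γ, where 5.86% of all genes tested did, and 0 of 7 with hypoxia, where 15.0% did (quasi-likelihood test of edgeR, p adjusted by Benjamini-Hochberg). At an unadjusted p under 0.05 there were 2 members for IFN-γ, Vim and Twist1, and 2 for hypoxia, Cdh2 and Zeb1, beside 14% and 26.5% of all genes. DESeq2's Wald test gave an adjusted p for all 7 members for IFN-γ and for 5 of them for hypoxia, without Krt8 and Snai2, and called none of these. The lack of a call does not show that these genes were unchanged. With 1 library per condition, the fit takes as its spread how far the 4 libraries depart from additive effects, with 1 residual degree of freedom for a gene and pooling over genes, and a real interaction or a difference between cultures would both enter it.

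**Figure D3:**
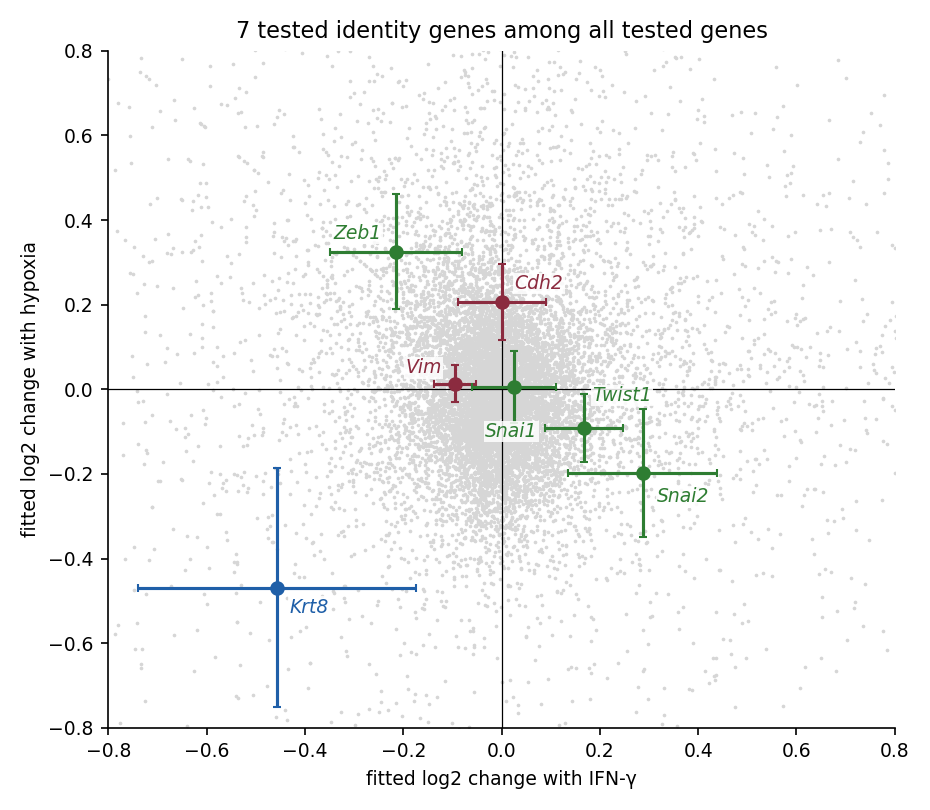
Fitted log2 change with IFN-γ (horizontal) and with hypoxia (vertical) for the 7 tested members, with bars of 1 SE, over all 13580 tested genes in grey, of which 912 lie outside the axes. Krt8 lies lowest at -0.46 and -0.47, Zeb1 highest at 0.33 with hypoxia, and Snai1 closest to 0 on both axes.

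The wider epithelial programme was examined in lists of junction genes, regulators and keratins. The counts of calls in these and the later lists stand beside those over all 13580 tested genes. With IFN-γ 647 of all genes rose and 149 fell (5.86% called), and in hypoxia 1115 rose and 927 fell (15.0% called). An unadjusted p under 0.05 was found for 14% and 26.5% of all genes. Of 34 junction and adhesion genes, 11 lay at or under the floor in all 4 libraries, among them the claudins Cldn3, Cldn4 and Cldn7 and the desmosomal cadherins Dsg2 and Dsc2. Other genes of these kinds were above the floor in every library. Cldn12 had 4943 to 5437 counts (mean 98 TPM), Cldn1 16 to 30, Ocln 93 to 138 and Pkp3 160 to 241. The median of the mean TPM over the list was 0.253, beside 1.41 over all 21610 genes. How many of all genes lay at or under the floor was not counted. A mean of at least 1 TPM was reached by 35.3% of the junction list, beside 51.5% of all 21610 genes. That share was 43.8% for the regulators and 37.5% for the filament genes below. It was 88.2% for the other EMT factors, 62.9% for the matrix genes and 20% for the further cadherins. The catenins that bind cadherins were abundant all the same, with Ctnnb1 at a mean of 311 TPM and Ctnna1 at 173 TPM. With IFN-γ, 1 of the 18 tested junction genes rose and 1 fell, with a median log2 change of -0.001 beside -0.011 over all genes tested. The riser was Cdh17, an intestinal cadherin that binds without catenins, whose counts went from 15 to 62 in the normoxic pair and from 21 to 120 in the hypoxic pair when IFN-γ was given. Its IFN-γ libraries lay above both controls, with a fitted log2 change of 2.32 (SE 0.342, edgeR adjusted p = 6.24e-10) that passed the test in 7 of 8 alternative fits. The gene that fell was Jup, which encodes plakoglobin, at 900 and 782 counts in control and 637 and 695 in IFN-γ libraries. Its log2 change was -0.32 (SE 0.0898, edgeR adjusted p = 0.00796), a call that held in 3 of 8 alternative fits.

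In hypoxia 4 of the 18 tested junction genes rose and none fell, beside 15.0% of all genes called in either direction. The median log2 change was 0.17 beside 0.0047 over all genes tested. An unadjusted p under 0.05 was found for 8 of the 18, beside 26.5% of all genes. Tjp1, which encodes the tight junction scaffold ZO-1, had 6437 and 6223 counts in normoxia and 7932 and 7897 in hypoxia. Its hypoxic libraries were above both normoxic ones, by a log2 change of 0.32 (SE 0.0559, edgeR adjusted p = 3.12e-07), which passed in 7 of 8 alternative fits. Ctnnd1, which encodes p120-catenin, rose by 0.2 on the same scale, a call that held in 5 of 8 alternative fits. Dsp, the desmosomal plakin, had 26 and 18 counts in normoxia and 36 and 80 in hypoxia (log2 change 1.34, edgeR adjusted p = 0.00383), so most of its rise came from the IFN-γ library in hypoxia.

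Among 16 epithelial regulators 6 lay at or under the floor in every library, which were Cdx1, Cdx2, Ehf, Foxa2, Grhl3 and Hnf4a. Klf4 and Ovol2 were the highest, at mean levels of 31.2 and 24.3 TPM. Elf3 (297 to 372 counts), Klf5 (474 to 578) and Foxa1 (134 to 152) were also above the floor in every library. A mean of at least 50 counts was reached by 7 of the 16. With each stimulus 1 of the 8 tested regulators rose and none fell, with medians of -0.045 for IFN-γ and 0.051 for hypoxia. The same gene, Ovol1, a zinc finger factor of epithelial differentiation, rose with both. It had 24 counts in the control library in normoxia, 72 in the control library in hypoxia, 45 in the IFN-γ library in normoxia and 142 in the IFN-γ library in hypoxia. The hypoxic library was the higher at both IFN-γ states and the IFN-γ library at both oxygen levels, with log2 changes of 1.63 for hypoxia (SE 0.28, edgeR adjusted p = 3.01e-07) and 0.97 for IFN-γ (SE 0.276, edgeR adjusted p = 0.0103). The hypoxia call held in 5 of 6 and the IFN-γ call in 5 of 8 alternative fits.

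Of 16 other intermediate filament genes, 6 lay at or under the floor, 5 of them the keratins Krt5, Krt7, Krt15, Krt17 and Krt23, with the glial filament gene Gfap. Other keratins were detected. Krt80 had 733 to 928 counts and a mean of 14.9 TPM, above Krt8, and Krt20 had 12 to 22 counts. Krt14 and Krt19 were above the floor in some libraries only. The nuclear lamins Lmna and Lmnb1 were the highest of this list, at 365 and 320 TPM. Of 8 tested, 1 fell with IFN-γ and 1 rose in hypoxia, with medians of -0.097 and 0.16. Nes, which encodes nestin, a filament partner of vimentin, had 5817 and 5414 counts in normoxia and 7390 and 6695 in hypoxia, with no overlap (log2 change 0.33, SE 0.0569, edgeR adjusted p = 3.82e-07). Des, the muscle filament desmin, had 62 and 64 counts in control and 16 and 49 in IFN-γ libraries (log2 change -1.01, edgeR adjusted p = 0.0409), and its call was lost in all 8 alternative fits.

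Among 17 other EMT transcription factors and cofactors, 15 were tested and 2, Gsc and Snai3, lay at or under the floor. The median of the mean TPM over this list was 10.45, and its highest members were Tcf3, at 145 TPM, and Twist2, at 136 TPM. Twist2, the paralog of Twist1, stood 2.31 to 3.4 times above Twist1 in TPM, and Zeb2 1.95 to 2.83 times above Zeb1. With IFN-γ 1 gene rose and none fell, and in hypoxia 1 rose and 1 fell, with medians of 0.013 and -0.019. Twist2 had 5689 and 5435 counts in normoxia and 4215 and 4038 in hypoxia, without overlap, and fell by 0.43 on the log2 scale (SE 0.0592, edgeR adjusted p = 3.77e-11), in all 8 alternative fits as well. Foxc2, a forkhead factor of mesenchyme, had 329 and 317 counts in normoxia and 473 and 488 in hypoxia (log2 change 0.57, SE 0.117, edgeR adjusted p = 2.46e-05). Prrx1, a homeobox factor of limb and stromal mesenchyme, had 279 and 254 counts in control and 383 and 417 in IFN-γ libraries (log2 change 0.6, SE 0.126, edgeR adjusted p = 6.57e-05). Foxc2 held in 6 and Prrx1 in 5 of 8 alternative fits.

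**Figure D4:**
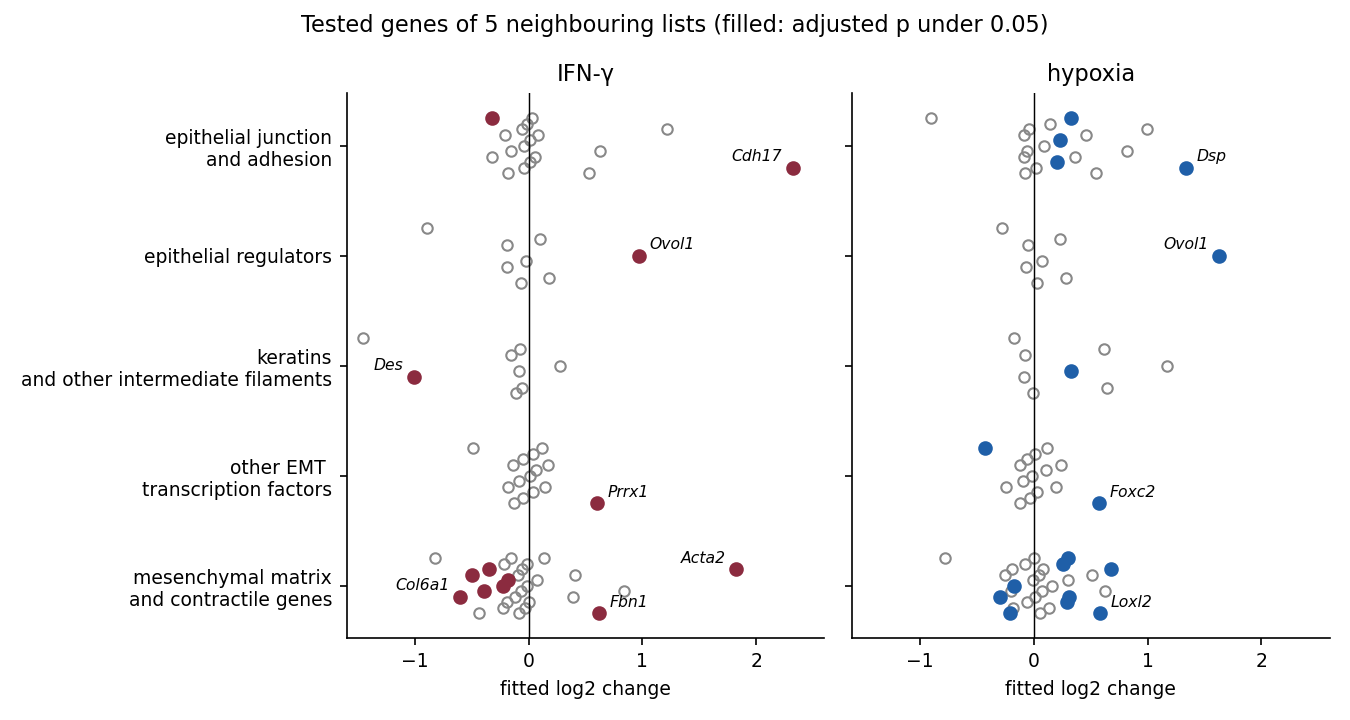
Fitted log2 change with IFN-γ (left) and with hypoxia (right) of the tested genes of 5 lists, 1 point per gene and spread vertically only to separate points. Filled points passed the test, and names are given for most of those past 0.5 on the log2 scale in either direction. Cdh17 at 2.32 is farthest to the right for IFN-γ and Ovol1 at 1.63 for hypoxia.

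Of 35 mesenchymal matrix, contractile and surface genes in the table, 28 were tested and 6 lay at or under the floor (Ccn2, Mmp2, Myl9, Postn, Thy1 and Tnc). The highest were Lgals1, which encodes galectin-1, at 3981 TPM, and S100a4, a calcium-binding protein also used as a fibroblast marker, at 1176 TPM, with 49.2% of the words of S100a4 shared with the annotated gene Gm42674. With IFN-γ 2 rose and 6 fell, beside 647 and 149 of all 13580 genes tested, with a median log2 change of -0.09. The collagen VI genes Col6a1 and Col6a2 fell by 0.6 and 0.5 on the log2 scale and Col3a1 by 0.39. Col6a1 had 1086 and 1051 counts in control and 727 and 667 in IFN-γ libraries, without overlap (SE 0.0854, edgeR adjusted p = 8.67e-11), and held in all 8 alternative fits, as Fbn1 did. Fbn1, which encodes fibrillin-1, had 1632 and 1565 counts in control and 2272 and 2605 in IFN-γ libraries, a log2 change of 0.62 (SE 0.0709, edgeR adjusted p = 1.58e-16). Acta2 was called as raised on 7 and 6 control counts against 17 and 30, and lost its call in all 6 fits that gave a value. S100a4 and Lgals1 fell by 0.35 and 0.18, calls that held in 6 and 5 of 8 alternative fits. The summed fibroblast markers were lower in the same IFN-γ libraries, as given above, and most of that sum is Col3a1 itself.

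In hypoxia 6 of these genes rose and 3 fell, beside 1115 and 927 of all 13580 genes tested, with a median log2 change of 0.047. Loxl2, a collagen cross-linking enzyme, had 122 and 154 counts in normoxia and 176 and 238 in hypoxia, and rose by 0.58 (SE 0.169, edgeR adjusted p = 0.00679). Itgav, Fn1, Tpm2 and Col5a1 rose by 0.3, 0.31, 0.29 and 0.25, while Tpm1, Lgals1 and Axl fell by 0.3, 0.21 and 0.18. Fn1, which encodes fibronectin, had 17149 and 13791 counts in normoxia and 17926 and 20142 in hypoxia, and most of its rise was in the IFN-γ pair.

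**Figure D5:**
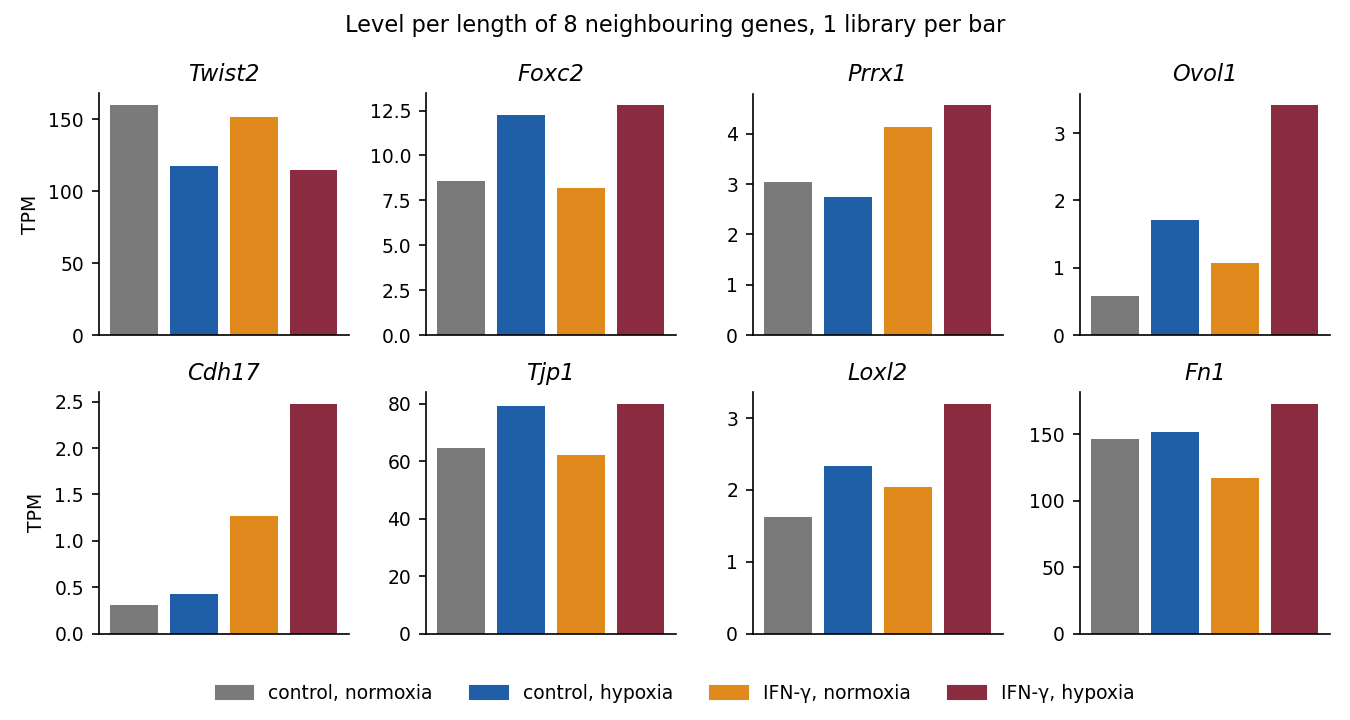
TPM of 8 neighbouring genes in the 4 libraries, 1 bar per library and each panel on its own axis from 0. Twist2 is lower in both hypoxic libraries, at 118 and 114 TPM against 160 and 152, and Cdh17 and Prrx1 are higher in both IFN-γ libraries.

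The level of the other cadherins was examined beside that of Cdh1 and Cdh2. Of 10 further cadherins 4 were tested and 4 lay at or under the floor (Cdh4, Cdh6, Cdh10 and Cdh16), and Cdh24 and Cdh13 were the highest, at 17.3 and 6.04 TPM. Cdh24 had 929 and 945 counts in normoxia and 804 and 734 in hypoxia and fell by 0.28 (SE 0.0857, edgeR adjusted p = 0.00992) in hypoxia, in 5 of 8 alternative fits as well. No cadherin of this list was called with IFN-γ, where 1 of the 4 had an unadjusted p under 0.05. The medians were -0.27 for IFN-γ and 0.063 for hypoxia.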

How the data were processed

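RNA-seq was performed on MC38 cells with 1 library for each of 4 conditions, from poly-A RNA with strand-specific paired reads. Reads were aligned with HISAT2 per the methods, and the submitters' processing notes name featureCounts and mm10. The counting settings and the annotation are not given in the sources used here. The authors deposited whole-number counts per gene, neither normalized nor filtered, and 25275 of 27179 IDs matched a symbol.

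Counts were tested with edgeR's quasi-likelihood test (edgeR 4.0.16, R 4.3.3) in an additive model of oxygen and IFN-γ over 4 libraries, with TMM normalization, a minimum of 10 counts in filterByExpr and Benjamini-Hochberg adjustment at 0.05. Log2 changes between 2 libraries used CPM with 0.5 counts added. Their 95% Clopper-Pearson intervals, and the Poisson intervals of differences, had been planned on the deposited counts and were computed after dividing counts by 2, a choice made after the even counts were seen. They cover counting error only. TPM used the longest GENCODE M21 transcript on GRCm38.p6. Motifs were searched in RefSeq promoter windows. The first base of a motif is counted from the start site.

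Members and gene lists were chosen with earlier results of these data known. Named genes were the members and, from each list, up to 4 called genes per stimulus with the largest change among those with a mean of at least 50 counts and the same sign in both pairs, the 2 with the highest TPM and those a small count is about. Other genes named (Cldn1, Cldn3, Cldn4, Cldn7, Cldn12, Ocln, Pkp3, Dsc2, Dsg2, Elf3, Klf5, Foxa1, the keratins beside the members, Foxc1, Zeb2, Tpm1, Tpm2, Col5a1, Axl, Ptprc, Lyz2 and Csf1r) were chosen after their values were seen. Some genes that the rule names are not reported here. Alternatives were DESeq2 1.42.0, its size factors, total counts, other filters, models without the other stimulus, counts divided by 2, 5 counts added and other gene lengths.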

Additional observations from a re-analysis of the deposited data

Results flagged for a closer look

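Fn1, which encodes fibronectin, moved in opposite directions with IFN-γ at the 2 oxygen levels. In normoxia its counts went from 17149 without to 13791 with IFN-γ, a log2 change of -0.30 (95% counting interval -0.35 to -0.25). In hypoxia they went from 17926 to 20142, a change of 0.18 on the same scale (0.14 to 0.22). The change in hypoxia exceeded that in normoxia by 0.481, above the central 95% of that difference over 10443 well counted genes (-0.36 to 0.4). Fn1 was flagged for this difference, and it was not alone outside that range. Among other well counted genes examined here, Foxc1 (-0.43), Pkp3 (0.45) and Cd68 (-0.49) lay outside it too. The counting intervals of the difference included 0 for Pkp3 (-0.11 to 1.0) and Cd68 (-1.05 to 0.066). Those of Fn1 (0.42 to 0.54) and Foxc1 (-0.83 to -0.037) did not. By construction, some of the 10443 genes lie outside a central 95% range. With 1 library per condition none of these differences was tested.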

How the results depend on the processing

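No paired analysis was possible because each condition had a single library, with no replicates to pair. The additive model itself compares libraries within each level of the other stimulus, and the comparisons of 2 libraries with 2 leave that out. Of 56 fitted changes of members per stimulus over 8 alternative fits, 56 for IFN-γ and 53 for hypoxia had an adjusted p, the gaps being Krt8 in both DESeq2 fits and Snai2 in DESeq2's Wald test. None was called, with the adjusted p nearest the threshold at 0.0857 for Cdh2 and 0.0864 for Zeb1, both for hypoxia. Over all genes, IFN-γ calls numbered 796 in the additive edgeR fit, 369 with DESeq2's Wald test, 242 when 2 libraries were compared with 2 in edgeR and 323 when this was done in DESeq2. Hypoxia calls numbered 2042, 576, 176 and 794 in the same order. The cause was not tested. Between 606 and 729 genes for IFN-γ and 1473 and 1974 for hypoxia were called in the other 5 fits. For each stimulus 55 of the 56 kept their sign. The IFN-γ change of Cdh2 was -0.015 with total counts (adjusted p = 0.965), and the hypoxia change of Snai1 was -0.0039 without a filter (adjusted p = 1). Between single libraries, Cdh2 and Snai1 were also below 0 for IFN-γ in normoxia (-0.0024 and -0.02) and Snai1 for hypoxia in control cells (-0.04). On the deposited counts, the planned basis, 12 of 28 intervals leave out 0 rather than 5, among them those of Cdh2 for hypoxia in both pairs (0.056 to 0.35 and 0.062 to 0.36) and of Krt8 for IFN-γ in normoxia (-1.18 to -0.17). Counting error limits Krt8 most, with intervals for IFN-γ from -1.41 to 0.042 in normoxia and from -1.06 to 0.63 in hypoxia on the log2 scale.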
